A study of Homo sapiens with 16 samples.

Results

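LHX9, LHX2 and LHX1 encode LIM homeodomain proteins, LMO1 to LMO4 encode LIM-only proteins, and LDB1 and LDB2 encode LIM domain binding proteins. These 9 genes were followed in IMR32 cells, a MYCN-amplified human neuroblastoma line, after knockdown of the spindle protein TPX2. They were found by their symbols among the 58787 Ensembl gene identifiers of the count table, and all 9 were present. Of the 9, 8 passed the filter on low counts, which kept 14193 genes, and LMO2 did not. LHX9 heads the set because its mean log2 difference from control was, apart from TPX2 itself, the lowest of the genes that passed under all 3 siRNAs in these data, and the other 8 were listed by family with those results known. The differences from control given below for these 9 genes are therefore descriptions and carry no test.

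There were 4 groups of 4 biological replicates, 16 libraries in all. The control group received the non-targeting siRNA siNTC, and the other groups received si45, si46 or si47, each a different siRNA against TPX2. The column names of the table give 48 h for every library. All groups are the same cell line, labelled as neuroblast from brain, so that no second line or tissue stands beside it. Libraries were read from the 3' end of polyadenylated transcripts, so that the number of reads does not grow with transcript length. Levels are given as CPM (counts scaled to library size).

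LIM domains are zinc-binding folds that hold other proteins. LIM homeodomain factors carry a pair of LIM domains beside a homeodomain that binds DNA at sites with the core TAATTA, while LIM-only proteins have LIM domains and no DNA-binding part. LDB proteins form dimers and bind LIM domains of both kinds, so that an LDB dimer can bridge DNA-bound factors, and free LIM-only proteins compete for the same LDB surface. In neuroblastoma, LMO1 is known as a susceptibility gene and as a partner of GATA3, HAND2 and other factors of the adrenergic circuit, and LMO3 as a gene with oncogenic activity.

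The homeodomain core is shown where it occurs in the set, because it is the sequence that the LHX proteins read. RefSeq start windows on GRCh38.p14 (250 bases before a start to 50 after it) were given for 6 of the 9 genes, 12 windows in all. The letters TAATTA, which read the same on both strands, were found in a window of LMO1 and in a window of LMO3. The windows of LHX9, LHX2, LMO4 and LDB1 held no match. Among all 35116 windows of this length, 4.84% held TAATTA. The E-box CACGTG, read by MYC and MAX family dimers, was in none of the 12 windows and in 7.26% of all windows. A match is a run of letters and not a measured binding site. The matches are printed 5′ to 3′ on the strand of the gene (minus for both), with the core in capitals and 30 bases each, from chr11:8268947-8268976, chr11:8268814-8268843, chr12:16608429-16608458 and chr12:16608294-16608323 in that order.
LMO1 upstream: gtgccctgcgggTAATTAgtgtccttggag
LMO1 near the start: aatgaattgattTAATTAacaggggaatct
LMO3 upstream: aatcccatcattTAATTAgttgaatgattt
LMO3 near the start: tctccttgaacaTAATTAatttaattgtcc

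Total counts ran from 5318159 to 7864343 per library, with a median of 5966581. The targeted gene, TPX2, had a control level of 327 ± 27.1 CPM (SD, n = 4), and its level was 91.6 ± 19.8 CPM under si45, 81.7 ± 14.3 under si46 and 71.5 ± 3.37 under si47. For every siRNA the two-sided exact permutation test of log2(CPM + 1) gave p = 0.0286, the lowest value possible with groups of 4. All 10 adrenergic neuroblast markers (such as HAND2 and GATA3) were tested, and 2 rose and 1 fell in the contrast of the 3 siRNAs' mean with siNTC (edgeR), where 3.61% of all genes passed as higher and 3.53% as lower. Their summed level was 4740 to 5101 CPM in the siNTC libraries, 4974 to 5365 in si45, 5156 to 5834 in si46 and 5315 to 5872 in si47. Of 10 mesenchymal-type or stromal markers 7 were tested and 0 passed in edgeR (1 at an unadjusted p under 0.05). The summed level of the 10 mesenchymal-type or stromal markers was 532 to 599 CPM in siNTC and 531 to 683 CPM in the knockdown libraries. VIM (217 to 315 CPM over all libraries) and TWIST1 (214 to 282 CPM) made up most of it. COL1A1 was at 18.1 to 64.6 CPM and THY1 at 26.9 to 39.3 CPM. FN1, SNAI2, YAP1, WWTR1 and COL3A1 stayed at or below 10.55 CPM in every library, and PRRX1 at or below 0.155 CPM. The part of these marker levels in the results below was not tested. In bulk RNA, fewer cells that express a gene and less of its RNA per cell cannot be told apart.

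The control libraries gave the order of the members. LMO4, a broadly expressed LIM-only gene, was by far the highest, at 244 ± 27.8 CPM (SD, n = 4), which placed it at rank 743 of the 14193 genes tested. LHX9, a homeodomain gene of gonad and forebrain development, followed at 59.4 ± 6.41 CPM and rank 3418. LHX2, its close relative in forebrain and eye development, was at 19.9 ± 2.11 CPM. The LIM binding genes came next, with LDB2 at 12.6 ± 1.31 and LDB1 at 10.2 ± 4.78 CPM. LMO1 was at 3.24 ± 1.25 CPM, LMO3 at 1.28 ± 0.470 CPM and LHX1, a gene of kidney and head development, at 0.676 ± 0.620 CPM. Neighbours in this order did not overlap between control libraries, except LDB2 with LDB1 and LMO3 with LHX1, whose libraries overlapped. LMO2, a blood and endothelial gene that is activated in T-cell leukaemia, had 0 counts in all 16 libraries, which allows a level of up to 0.0311 CPM over all libraries together (3 counts, counting error only).

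LMO4 alone held 69.3% ± 2.41 (SD, n = 4) of the counts of the 9 genes in siNTC and LHX9 held 17.0% ± 2.22. In si45, si46 and si47 the LHX9 share was 10.6% ± 1.48, 8.46% ± 0.215 and 9.16% ± 1.64, and the LMO4 share 75.2% ± 0.646, 78.4% ± 2.71 and 76.1% ± 1.82. The summed LHX and LMO transcripts exceeded the summed LDB transcripts by 14.8 ± 2.96 times in siNTC, 13.8 ± 4.17 times in si45, 14.2 ± 1.71 times in si46 and 13.5 ± 5.95 times in si47. These group ratios lay within the spread between replicates of each other. LMO4 made up most of the sum of LHX and LMO transcripts in every group.

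**Figure D1:**
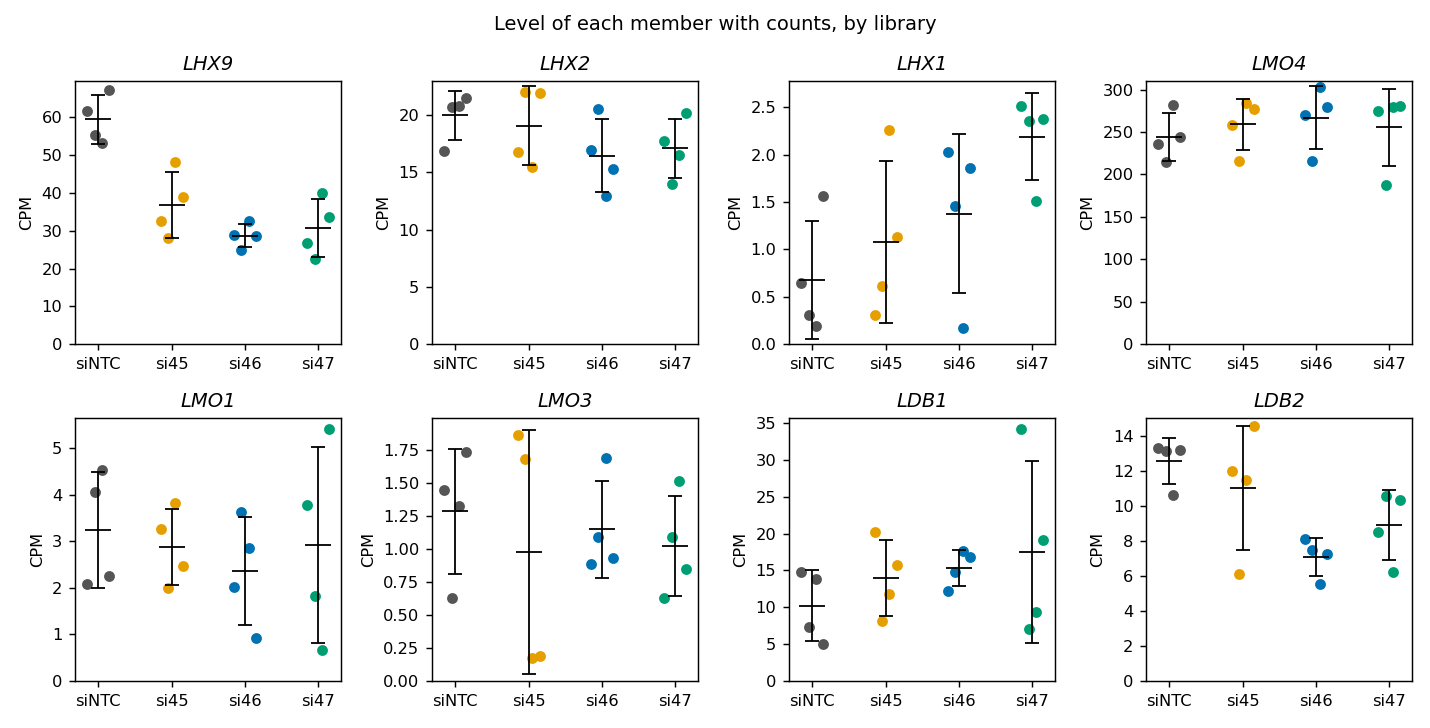
Each panel plots 1 gene in CPM (linear axis from 0) for the 16 libraries by siRNA group; bars are the mean and SD of 4 replicates. LHX9 is lower in all 12 knockdown libraries (22.5 to 48.03 CPM) than in the 4 controls (53.1 to 67.3 CPM), while LMO4 overlaps between groups.

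LHX9 (ENSG00000143355, chromosome 1, 197911902 to 197935478, plus strand, GENCODE v29 on GRCh38) was at 61.7, 55.4, 53.1 and 67.3 CPM in siNTC replicates 1 to 4. In si45 it was at 32.4, 28.0, 48.03 and 39.0 CPM, in si46 at 28.7, 24.9, 32.5 and 28.7 CPM, and in si47 at 26.7, 22.5, 40.0 and 33.7 CPM. Every knockdown library lay below every control, so the groups did not overlap. Over all genes tested, 1.03% had all 12 knockdown libraries below all 4 controls, 1.49% had them above, and 2.52% had either. The group means were 62.1%, 48.3% and 51.7% of the control mean in si45, si46 and si47. The log2 differences from siNTC in the edgeR fit were -0.69 (SE 0.156), -1.05 (SE 0.158) and -0.95 (SE 0.158), and -0.90 (SE 0.122) for the mean of the 3 siRNAs. These 3 comparisons share the control libraries.

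Within each siRNA group, LHX9 was highest in replicate 3 and lowest in replicate 2. TPX2 was also highest in replicate 3 of each siRNA group, with 121 CPM for si45, 93.8 CPM for si46 and 76.3 CPM for si47. In siNTC, replicate 3 was instead the lowest library for both genes. Over the 12 knockdown libraries, LHX9 and TPX2 had Pearson's r = 0.62 (permutation p = 0.0301) and Spearman's rho = 0.52 (permutation p = 0.0901). Adjusted over the 8 members examined in this way, these were 0.241 and 0.483, so the relation did not pass. Without si45 replicate 3 and si46 replicate 4, the libraries farthest from the median of TPX2, r was 0.32 (permutation p = 0.368). Leaving them out also narrows the range of TPX2, which by itself can lower r. With each siRNA group centred on its own mean, r was 0.59 (permutation within groups, p = 0.0267, adjusted p = 0.214). The other 7 members had r from -0.31 for LMO3 to 0.30 for LMO1, and none passed. These permutations treat libraries as exchangeable. Libraries of the same replicate number share structure in their values, as given in the closing section, and the permutation p-values take no account of it.

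**Figure D2:**
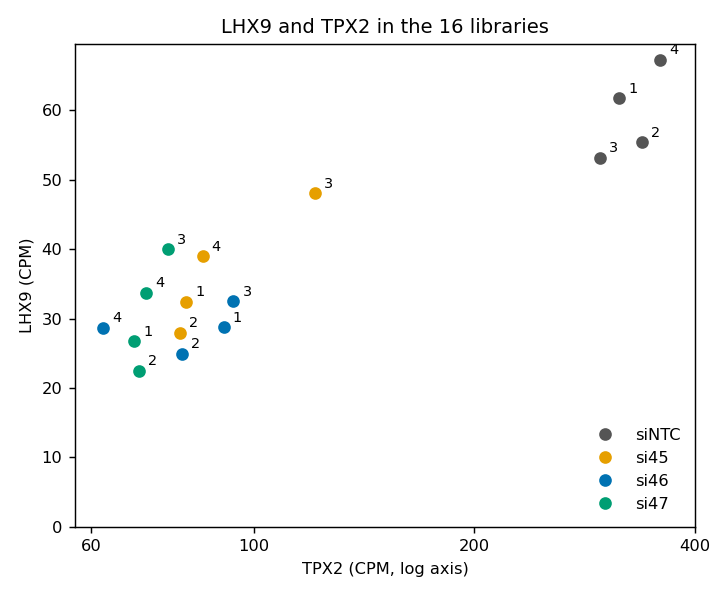
LHX9 (CPM, linear axis) against TPX2 (CPM, log axis) in the 16 libraries, coloured by siRNA and labelled with the replicate number. Controls stand apart at upper right, and si45 replicate 3, with 121 CPM of TPX2 and 48.03 CPM of LHX9, is the knockdown library closest to them.

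The siRNAs were then compared with each other, a comparison that leaves out the controls. These contrasts were not used to choose the genes, but the same knockdown libraries were. Since LHX9 had to pass under all 3 siRNAs, the comparison is not independent of its choice. LHX9 was lower in si46 than in si45 by 0.36 on the log2 scale (difference -0.36, 95% interval -0.67 to -0.04), with an edgeR adjusted p of 0.99998 over all genes. The difference of si47 from si45 was -0.26 (-0.57 to 0.06, edgeR adjusted p = 0.612) and that of si47 from si46 was 0.10 (-0.22 to 0.42, edgeR adjusted p = 0.949). The last difference was -0.05 without si47 replicate 3. For the other 7 tested members the 21 differences between siRNAs ran from -0.62 (LDB2, si46 against si45) to 1.03 (LHX1, si47 against si45). In all, 0 of 24 differences passed in edgeR, in DESeq2 or in limma-voom. In edgeR 2 had an unadjusted p under 0.05, both between si46 and si45, namely LHX9 (edgeR unadjusted p = 0.0342) and LDB2 (edgeR unadjusted p = 0.0155). Over all genes, 0.0282% passed for si46 against si45, 0.169% for si47 against si45 and 0.0493% for si47 against si46. The intervals leave room for differences between siRNAs in all of these genes.

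For the other homeodomain members, knockdown and control libraries overlapped. LHX2 (chromosome 9, 124001670 to 124033301) was at 16.8, 20.6, 20.8 and 21.5 CPM in siNTC. It was at 15.4 to 22.02 CPM in si45, 13.0 to 20.6 in si46 and 13.97 to 20.1 in si47, so all groups overlapped with the controls. Its log2 differences were -0.07 (SE 0.176), -0.28 (SE 0.178) and -0.22 (SE 0.178). Of 12 LHX2 knockdown libraries, 6 lay below all controls and 2 above them. The antisense gene AC006450.3 inside LHX2 had 109 counts over all 16 libraries. LHX1 (chromosome 17, 36936785 to 36944612) had 1 to 9 counts per library in siNTC and 9 to 16 in si47. It was at 0.311 to 2.25 CPM in si45 and 0.168 to 2.03 CPM in si46. At 2.51, 2.36, 1.51 and 2.37 CPM, 3 of the 4 si47 libraries were above every control, the highest of which had 1.56 CPM. The LHX1 differences were 0.63 (SE 0.716), 1.02 (SE 0.692) and 1.66 (SE 0.669). They depend on siNTC replicate 4, without which they were 1.40, 1.79 and 2.44, and the si45 value was -0.02 without si45 replicate 3.

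LMO4 (chromosome 1, 87328468 to 87348923) was at 236, 215, 281 and 244 CPM in siNTC. The si45 libraries were at 259, 216, 284 and 277 CPM, those of si46 at 270, 215, 303 and 279 CPM, and those of si47 at 275, 188, 280 and 281 CPM. The groups overlapped throughout, and replicate 2 was the lowest library of every group. The log2 differences of LMO4 were 0.08 (SE 0.122), 0.13 (SE 0.122) and 0.07 (SE 0.123), none much larger than its error. LMO1 (chromosome 11, 8224304 to 8268716), with TAATTA in its start window, had 4 to 32 counts per library. Its level was 2.08 to 4.54 CPM in siNTC, 1.99 to 3.81 in si45, 0.931 to 3.64 in si46 and 0.672 to 5.42 in si47, with log2 differences of -0.16 (SE 0.476), -0.45 (SE 0.483) and -0.14 (SE 0.475). LMO3 (chromosome 12, 16548373 to 16610594) had 1 to 12 counts per library, 0.626 to 1.73 CPM in siNTC and 0.173 to 1.86 CPM in the knockdown libraries, and differences of -0.33 (SE 0.641), -0.16 (SE 0.633) and -0.32 (SE 0.643). LMO3 overlaps MGST1 on the opposite strand, and strand use in the counting is not given in the sources used here, so its few reads cannot be assigned to LMO3 with certainty. At these counts the errors of LMO1 and LMO3 were wide, and even changes well above those errors could have gone undetected.

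The LIM binding genes had fitted differences of opposite sign. LDB2 (chromosome 4, 16501541 to 16898809) was at 13.3, 13.1, 10.6 and 13.2 CPM in siNTC. It was at 8.10, 7.46, 5.56 and 7.26 CPM in si46 and at 8.49, 10.5, 6.22 and 10.3 CPM in si47. All 8 of these libraries lay below every control, though the highest, 10.5 CPM, was close to siNTC replicate 3. The share of all genes with this separation was not counted, so it is not read as particular to LDB2. The si45 libraries, at 11.95, 6.12, 11.4 and 14.6 CPM, overlapped with the controls. The LDB2 differences were -0.20 (SE 0.235), -0.82 (SE 0.243) and -0.50 (SE 0.239). LDB1 (chromosome 10, 102107560 to 102120453), the widely expressed partner of LMO and LHX proteins, had 14.8, 7.35, 13.8 and 5.03 CPM in the controls, and 34.3, 7.08, 9.41 and 19.1 CPM under si47. The si45 libraries were at 20.2, 8.10, 11.8 and 15.7 CPM and the si46 libraries at 12.2, 14.7, 17.7 and 16.8 CPM. Its differences of 0.45 (SE 0.482), 0.58 (SE 0.479) and 0.78 (SE 0.476) had errors of a similar size, and the si47 value was 0.22 without si47 replicate 1.

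**Figure D3:**
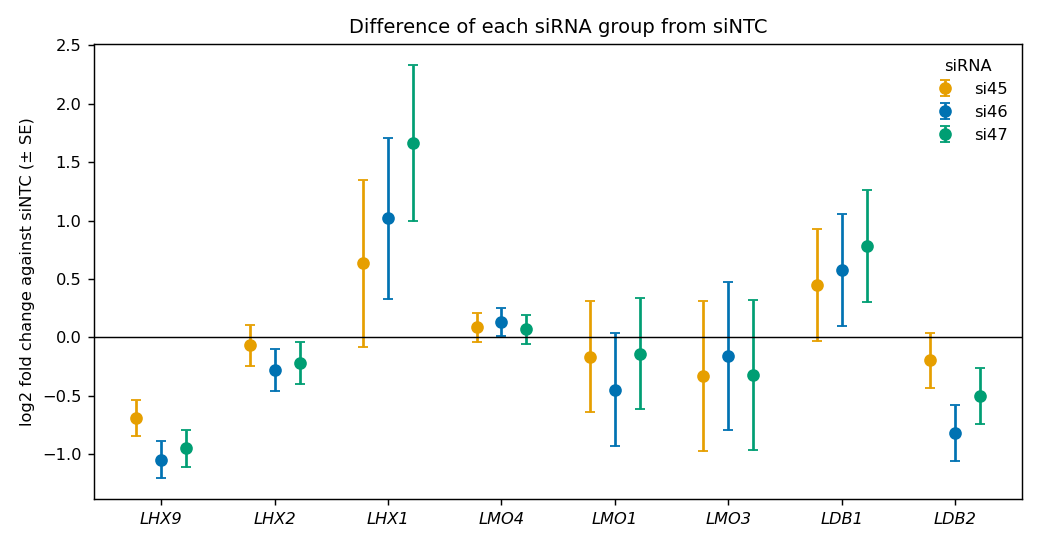
Points are the log2 differences of si45, si46 and si47 from siNTC in the edgeR fit for the 8 tested members, and bars are 1 SE. LHX9 lies between -1.05 and -0.69 with short bars, LMO4 stays near 0, and the bars of LHX1, LMO1, LMO3 and LDB1 are long.

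Of the 8 tested members, 1 (LHX9, lower) passed the threshold in each of the 4 contrasts with siNTC. Over all genes tested, 1.34% passed for si45 (1.01% higher and 0.324% lower), 3.4% for si46 (2.14% higher and 1.25% lower), 9.74% for si47 (4.91% higher and 4.83% lower) and 7.14% for the mean of the 3 siRNAs (3.61% higher and 3.53% lower). The 190 calls for si45 were 119 without siNTC replicate 2, 97 without si45 replicate 1 and 406 without si45 replicate 3. The 482 calls for si46 were 293, 318 and 301 without siNTC replicate 1, 2 or 4, and 252 and 253 without si46 replicate 2 or 4. Since LHX9 was chosen on these contrasts, nothing is read from this count.

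Replicates of LDB1 differed more than those of almost all genes of its level. Its biological coefficient of variation, the spread between replicates beyond counting error, was 0.444 in edgeR. The median of the 2485 genes within 1.5-fold of its mean level was 0.177, and LDB1 exceeded 99.4% of them. LMO4 (0.124) exceeded 91.3% of 749 genes of like level, LHX9 (0.148) exceeded 86.1% of 2690, and LDB2 (0.204) exceeded 50.1% of 2207. LDB1 ranged from 7.08 to 34.3 CPM within si47 and from 5.03 to 14.8 CPM within siNTC, both wider than the gap between their means.

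**Figure D4:**
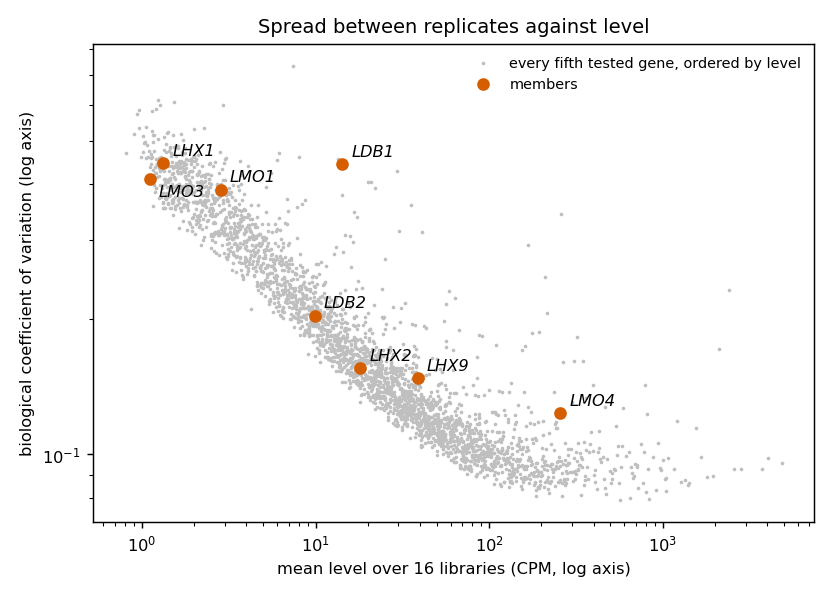
Biological coefficient of variation in edgeR against mean CPM (both log axes) for an evenly spaced subset of tested genes (grey) and the 8 tested members (orange). LDB1, at 0.444, sits above the cloud at its level, and LDB2, at 0.204, in the middle of it.

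Genes with profiles most like LHX9 were sought among the 9183 other genes with a mean of at least 10 CPM. The measure was the root mean square difference between centred log2(CPM + 1) profiles over the 16 libraries, which had a median of 0.49 over these genes. The nearest were TOP2A (0.19), which encodes the mitotic topoisomerase II alpha, LRFN1 (0.21), a synaptic adhesion gene, IGFBP5 (0.22), an insulin-like growth factor binding protein, EYA2 (0.22), a transcriptional coactivator and phosphatase, and EMP2 (0.23), a membrane protein. TOP2A had 2987 ± 193 CPM (SD, n = 4) in the controls, 2157 ± 578 under si45, 1989 ± 325 under si46 and 1624 ± 298 under si47. EYA2 had 77.4 ± 6.13 CPM in the controls, 53.0 ± 10.02 under si45, 46.2 ± 8.81 under si46 and 53.2 ± 10.98 under si47. For LRFN1, IGFBP5, EYA2 and EMP2, every one of the 12 knockdown libraries was under the lowest control, as for 1.03% of all genes tested. For TOP2A, 11 of them were. These genes were picked for their likeness to LHX9 in libraries of shared depth, so their levels are a description.

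The same measure was applied to LDB1 after its spread had been seen. The nearest profiles were those of GNB2 (0.21), RCOR2 (0.22), DTD1 (0.23), TM9SF2 (0.26) and METTL17 (0.26), against a median of 0.65 over all candidates. RCOR2, a corepressor gene, was at 24.3 CPM in siNTC replicate 4 and at 137 CPM in si47 replicate 1, the lowest and highest LDB1 libraries. GNB2, which encodes a G protein beta subunit, was at 7.63 and 37.6 CPM in the same libraries. All 5 had their highest level in si47 replicate 1, and all but METTL17 had their lowest in siNTC replicate 4.

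**Figure D5:**
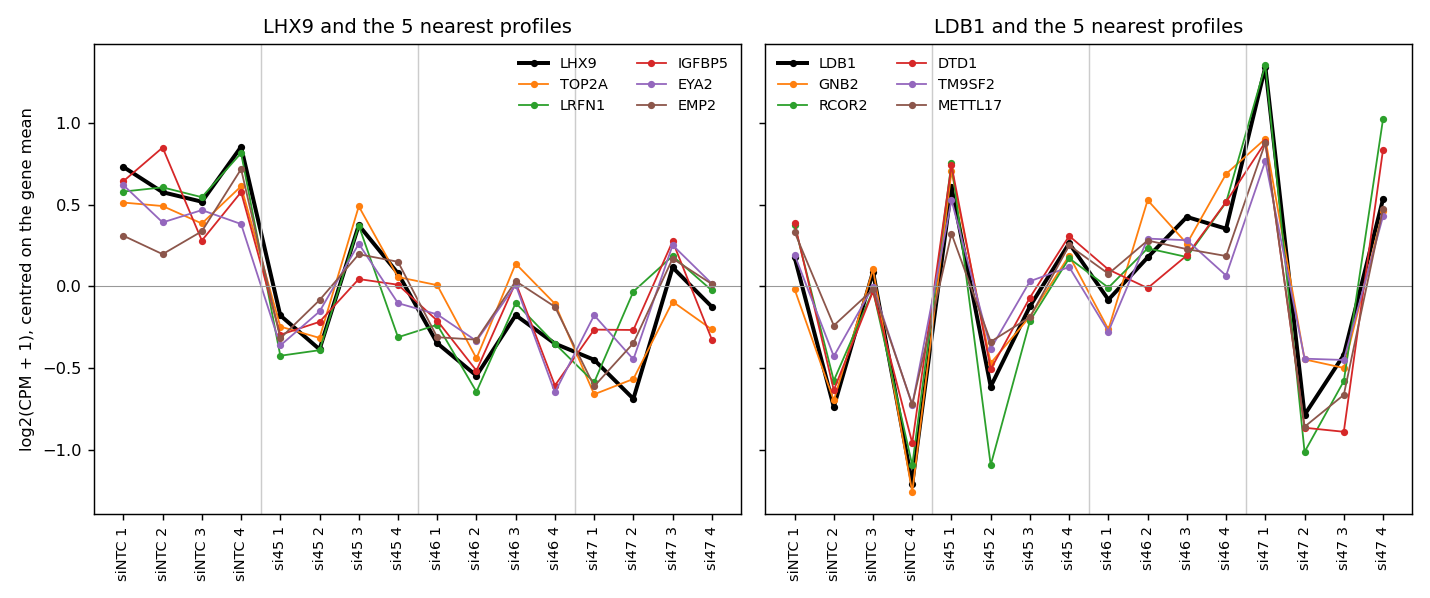
Lines are centred log2(CPM + 1) values over the 16 libraries for LHX9 (left) and LDB1 (right), each with its 5 nearest genes. The LHX9 set steps down from siNTC to the siRNA groups, while the LDB1 set swings within groups, with siNTC replicate 4 low and si47 replicate 1 high.

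The genomic neighbours of the members were compared, as a set chosen by position. The nearest tested gene on either side of each of the 8 tested members gave 16 genes, of which 1 passed in the contrast of the mean (edgeR adjusted p under 0.05), against 7.14% of all genes. This was NEK7, a mitotic kinase gene that starts 221.5 kb after LHX9 on the same strand (chromosome 1, 198156963 to 198322420). NEK7 fell by 0.63 on the log2 scale (SE 0.145, edgeR adjusted p = 0.0052) from 24.1 ± 1.82 CPM (SD, n = 4) in siNTC. C1orf53, which ends 4.5 kb before LHX9, had 1.03 ± 0.489 CPM in siNTC and a difference of 0.73 (SE 0.517, edgeR adjusted p = 0.460), which missed the threshold.

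Other LIM homeobox genes were little expressed apart from ISL1. Of 9 listed genes 4 were tested, and 0 passed in the contrast of the mean in edgeR, where 7.14% of all genes did. At an unadjusted p under 0.05 there were 2 in edgeR, and 0 passed in DESeq2 or limma-voom. The median log2 difference was 0.27, against -0.0011 over all genes. It rests on ISL1, on ISL2 (0.67, SE 0.296), and on LHX6 and LHX8, named after their values were seen. LHX6 was at 1.20 CPM in siNTC (difference 0.36, SE 0.480) and LHX8 at 4.80 CPM (-0.06, SE 0.253), both low levels. ISL1, a factor of sympathetic and motor neurons, was the most abundant LIM homeobox gene measured, at 194 ± 8.81 CPM (SD, n = 4) in siNTC. Its mean difference was 0.17 (SE 0.0755, edgeR adjusted p = 0.176). For ISL1, 9 of 12 knockdown libraries were above all controls, a separation whose share over all genes was not counted. Under si47, 4.91% of all genes passed as higher. ISL2, named after its values were seen, rose under si47 from 2.73 ± 0.648 to 5.92 ± 0.717 CPM (log2 difference 1.11, SE 0.345, edgeR adjusted p = 0.0344). That call was lost without siNTC replicate 1, 2 or 3 or si47 replicate 1, 2 or 4, with edgeR adjusted p from 0.0289 to 0.1004 over the libraries left out, and with no low-count filter (edgeR adjusted p = 0.0607). LHX5 was listed at 0 in all 16 libraries.

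Among partners of the LDB and LMO complexes, of 14 listed genes 11 were tested, 0 rose and 1 fell in the contrast of the mean, where 3.61% of all genes passed as higher and 3.53% as lower, and the list median was -0.05. The gene that fell was RBBP8, which encodes the DNA end resection factor CtIP, a binding partner of LMO4. RBBP8 had 96.6 ± 4.45 CPM (SD, n = 4) in the controls, 84.6 ± 4.48 under si45, 78.1 ± 8.88 under si46 and 72.3 ± 7.96 under si47. Each of the 12 knockdown libraries was under the lowest control, as for 1.03% of all genes tested. The mean difference of RBBP8 was -0.31 (SE 0.0802, edgeR adjusted p = 0.0141), and the call was lost without siNTC replicate 1 (edgeR adjusted p = 0.0808). The single-stranded DNA binding proteins that stabilise LDB1 are encoded by SSBP2, SSBP3 and SSBP4. Their differences were -0.01 (SE 0.180), -0.08 (SE 0.0659) and 0.27 (SE 0.118), and none passed (edgeR adjusted p = 0.978, 0.544 and 0.189). SSBP3 was the most abundant of these, at 378 ± 35.9 CPM in siNTC. SSBP4 passed without si45 replicate 3 (edgeR adjusted p = 0.0413) and with no low-count filter (edgeR adjusted p = 0.0448). Under si47 alone 1 partner rose and 2 fell, against 4.91% of all genes higher and 4.83% lower. RBBP8 fell by 0.42 (SE 0.1002, edgeR adjusted p = 0.0054) and passed whichever of the 16 libraries was left out. GATA3 rose by 0.23 (SE 0.0759, edgeR adjusted p = 0.0463), and DEAF1, a transcription factor that binds LMO4 and was named after its values were seen, fell by 0.52 (SE 0.172, edgeR adjusted p = 0.0489). Those calls were lost without any 1 of 11 libraries for GATA3 (edgeR adjusted p up to 0.154) and of 13 for DEAF1 (up to 0.143).

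Of the 8 listed factors of the adrenergic circuit, all were tested, 2 rose and 0 fell in the contrast of the mean, against 3.61% of all genes higher and 3.53% lower, with a median of 0.20. The count was 4 in DESeq2 or without si45 replicate 3, and 1 without siNTC replicate 1 or 3. TBX2, with a control level of 427 ± 44.5 CPM, rose by 0.33 on the log2 scale (edgeR adjusted p = 0.0038, SE 0.0746). For TBX2, 9 of 12 knockdown libraries were above all controls, a separation whose share over all genes was not counted. HAND2, a sympathetic lineage factor that works with GATA3 and LMO1, rose from 715 ± 31.6 CPM (SD, n = 4) in siNTC to 823 ± 51.2, 844 ± 34.3 and 845 ± 35.2 CPM. All 12 knockdown libraries were above all controls, as for 1.49% of all genes tested. The HAND2 difference of 0.23 (SE 0.0623, edgeR adjusted p = 0.0193) no longer passed when siNTC replicate 1 or 3 was left out (edgeR adjusted p = 0.1001 and 0.0728). GATA3, at 1106 ± 85.3 CPM in siNTC, differed by 0.16 (SE 0.0625, edgeR adjusted p = 0.127), which passed in DESeq2 (adjusted p = 0.0479).

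LIM domain genes outside these families mostly encode cytoskeletal and adhesion proteins. Of 45 listed genes 36 were tested, and 0 rose and 1 fell in the contrast of the mean, with a median of -0.03. Over all genes, 3.61% passed as higher and 3.53% as lower in that contrast. The gene that fell was PDLIM2, an actin-associated LIM protein, from 42.1 ± 3.99 CPM (SD, n = 4) in siNTC to 31.5 ± 4.03, 29.2 ± 3.25 and 36.9 ± 6.55 CPM (mean difference -0.38, SE 0.1101, edgeR adjusted p = 0.0298). In 11 of 12 knockdown libraries it was below all controls, a separation whose share over all genes was not counted. The call was lost without siNTC replicate 1, 2 or 3 or si45 replicate 1 (edgeR adjusted p = 0.150, 0.0978, 0.0579 and 0.0556).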

How the data were processed

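The authors deposited 1 table of raw read counts per Ensembl gene for 16 libraries, made per the labels with a 3' end kit (QuantSeq) and 15 PCR cycles. The submitters' processing notes name GRCh38, FastQC 0.11.7, STAR 2.7.2b, edgeR 3.36.0 and limma 3.50.3. The counter, annotation, strand setting and handling of PCR duplicates are not given in the sources used here, and floors cover counting error only. Each column name gave the siRNA and replicate of its sample. The 24 pairs of replicates differed by 4.45 to 10.3 times sampling noise (chi-square per degree of freedom), so none was a repeated library.

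Symbols came from a gene name table (58434 identifiers matched) and positions from GENCODE v29. Genes were kept by filterByExpr (minimum count 10, minimum total 15), scaled by TMM and fitted in edgeR 4.0.16 (R 4.3.3) in 1 robust quasi-likelihood model of 4 group means, with Benjamini-Hochberg adjustment over 14193 genes and a threshold of 0.05. Intervals are the difference ± the normal 95% quantile times its SE (the difference divided by the square root of F). Correlations used 100000 permutations. On simulated data with 200 genes changed by 1 on the log2 scale, 69.4% of the 193 tested were recovered for si45 against siNTC and 79.8% for the mean of the siRNAs, with 10 and 8 false calls among 13928 genes. The simulated libraries were drawn independently, without structure shared by replicate number, so these rates need not hold for the real data.

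Replicate deviations correlated over 0.1 in all 4 same-numbered pairs of si45 and si47 (r = 0.12 to 0.242), a pairing that comes from the values and not from the labels. The same results were recomputed in DESeq2 1.42.0 and limma-voom (limma 3.58.1), with upper-quartile or RLE factors, without the filter, with a minimum of 10 counts per library, with replicate number as a block, and without each library in turn. The members, lists and rules were chosen with earlier results of these data known. Named genes were TPX2, all members, up to 3 called genes per list and direction, GATA3, ISL1, SSBP2, SSBP3, SSBP4 and HAND2 whatever their values, and the 5 profiles nearest LHX9. A further gene under this rule is not reported here. Neighbours, start windows, correlations with TPX2 and the LDB1 profiles were added after values were seen. Figures were drawn with matplotlib 3.10.9.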

Additional observations from a re-analysis of the deposited data

Results flagged for a closer look

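In 40 groups of 4 libraries (the 8 tested members, TPX2 and total counts), 4 had 1 library far from the other 3 relative to the range of the group, where chance gives about 2. LMO4 in si47 replicate 2 was at 188 CPM against 275 to 281 CPM in the other si47 libraries. LDB2 in siNTC replicate 3 was at 10.6 CPM against 13.1 to 13.3 CPM in the other controls. LHX1 in si47 replicate 3 was at 1.51 CPM against 2.36 to 2.51 CPM. TPX2 had 121 CPM in si45 replicate 3, where the other si45 libraries had 79.4 to 85.1 CPM, and LHX9 was also highest of its group there, at 48.03 CPM.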

How the results depend on the processing

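The LHX9 difference for the mean of the siRNAs ran from -0.92 to -0.89 over 7 alternatives, with -0.92 under the replicate block, and from -0.95 to -0.83 when single libraries were left out. With the replicate number as a block, 0 members differed between siRNAs. Same-numbered libraries of siNTC and an siRNA correlated weakly (r = 0.0752 to 0.184 for si45, 0.0387 to 0.112 for si46 and 0.0188 to 0.114 for si47). Ranges between siRNA groups overlapped with these, at 0.0716 to 0.247 for si45 and si46, 0.12 to 0.242 for si45 and si47, and 0.0854 to 0.209 for si46 and si47. Between siNTC and si45, libraries matched their own number best in 8 of 8 cases, and in 5 of 8 for si46 and for si47. Between siRNA groups the match was 8 of 8 in each pair of groups. The replicate number thus goes with shared structure in the values, a hint from the data only. The labels do not say what it marks, and the main fit leaves it out. Called genes in the contrast of the mean numbered 1014, 1817 with the block, and 629, 677, 675 and 632 without siNTC replicate 1, 2, 3 or 4. The 190, 482 and 1382 calls for si45, si46 and si47 were 577, 1073 and 2198 with the block, and those for si45 were 356 with no low-count filter and 292 in DESeq2. Counts per list were 3 for LDB and LMO partners with the block and 2 with no low-count filter or in DESeq2 (against 1), 5 and 4 for adrenergic factors with the block and in DESeq2 (against 2), and 2 for other LIM domain genes with the block (against 1). Leaving out single libraries gave 0 to 2, 1 to 4 and 0 to 1 in these lists, 0 to 0 for LIM homeobox genes, and 0 members between siRNAs. Under the block GATA3 and SSBP4 passed (edgeR adjusted p = 0.0366 and 0.0099), and SSBP4 did with no low-count filter (0.0448). Leaving out libraries moved SSBP2 between -0.13 and 0.16 and LHX9 of si47 against si46 between -0.054 (without si47 replicate 3, where it changed sign) and 0.22. TPX2 differences ran from -1.98 to -1.78, -2.08 to -1.88 and -2.22 to -2.13, where 3 against 4 libraries allow no exact permutation p below 0.0571. LMO3 under si45 was -0.77 in limma-voom and -0.81 without si45 replicate 1. LHX1, LMO1 and LMO3 hold at most 32 counts per library, which limits their precision.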
